A study of Homo sapiens with 15 samples.

Results

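The insulin-like growth factor (IGF) binding proteins, the ligand IGF2 and the receptors IGF1R, INSR and IGF2R were examined by RNA-seq in HEK293 cells that express the fusion oncoprotein YAP-MAML2 in a condensed or a diffuse state. The set holds 10 genes of the 61533 gene identifiers in the count table, namely 6 binding proteins (IGFBP2, IGFBP3, IGFBP4, IGFBP5, IGFBP6 and IGFBP7), 1 ligand and 3 receptors. They were found by matching each Ensembl identifier, without its version, to its gene symbol. Of the 10 genes, 9 had enough reads to be tested for differences between groups, and IGF2 did not.

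The cells were engineered HEK293 cells (HEK293T in the sample labels), a human kidney-derived line that is easily made to express introduced genes. There were 15 libraries of polyadenylated RNA, 3 in each of 5 groups. YAP-MAML2 joins YAP, a coactivator that reaches DNA through TEAD transcription factors, to MAML2, a coactivator of Notch signalling. In SPARK-OFF cells the fusion carries FKBP and mEGFP, and the cells also make mCherry with Frb and a nuclear localization signal. Rapamycin joins FKBP to Frb, which brings mCherry to the fusion and dissolves its condensates. The group called condensed here is SPARK-OFF cells given DMSO for 5 h, and the group called diffuse is SPARK-OFF cells given rapamycin for 5 h. The no-mCherry control cells have the fusion with its tags but lack mCherry, and were given DMSO or rapamycin for 5 h. In the paper, the condensates of this control were not dissolved by rapamycin. The eGFP control cells express eGFP without the fusion and were mock-treated. A comparison with the eGFP cells therefore holds the engineered line, the vehicle or drug, and the fusion together, and these cannot be told apart. Rapamycin also inhibits mTORC1, a kinase complex that acts below the insulin and IGF receptors, and the no-mCherry pair measures rapamycin without dissolution.

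IGF1 and IGF2 are secreted growth factors that activate the receptor tyrosine kinase IGF1R and, in part, the insulin receptor INSR, which signal through IRS adaptors, PI3K and AKT. IGF2R, the cation-independent mannose 6-phosphate receptor, carries IGF2 and lysosomal enzymes to the lysosome and has no kinase. The classical binding proteins hold IGFs in the extracellular space and can limit or prolong their action, while IGFBP7 is a secreted relative with low affinity for IGFs, and proteases such as PAPPA and HTRA1 cleave members of the family.

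Total counts ran from 14720387 to 24797509 per library. The levels below are CPM, a gene's count scaled by its TMM-adjusted library size to a total common to all libraries. MAML2, whose sequence is part of the fusion, had a mean of 3.63 CPM in eGFP cells, 220 in no-mCherry cells with DMSO, 243 in no-mCherry cells with rapamycin, 415 in condensed cells and 540 in diffuse cells. All 7 markers of the HEK293 line were detected in every group. Their summed level was 2420 to 2610 CPM in eGFP cells and 781 to 952 CPM in condensed cells, of which most is IRS4. All 7 were called lower in condensed than in eGFP cells (adjusted p under 0.05 by edgeR's quasi-likelihood test), where 14.1% of all genes were called lower. Of 8 markers of other cell types, 5 had too few reads to be tested and CD3E had no read in any library, and their summed level was 33.4 to 39.9 CPM in eGFP and 24.6 to 25.2 CPM in condensed cells. Among these markers the collagen gene COL1A1 fell from 31.1 to 17.0 CPM (adjusted p = 0.00126 by edgeR's quasi-likelihood test). The endothelial cadherin gene CDH5 rose from 3 counts over the eGFP libraries to 47 over the condensed libraries, without overlap (adjusted p = 0.0036 by the same test). The leukocyte gene PTPRC went from 0 to 11 counts and the endothelial gene PECAM1 from 0 to 7, and neither was tested. The mitochondrial share of counts was 2.86 to 3.33% in SPARK-OFF cells and 3.67 to 3.93% in the other groups. Whether any of these differences has a part in the results below was not tested. Nothing in the labels says that replicates came from separate cultures, so p-values measure the spread between these libraries, which may be technical. In bulk RNA, fewer cells that express a gene and less RNA per cell cannot be told apart.

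The 6 binding protein genes were compared first between cells with condensed YAP-MAML2 and eGFP control cells. As stated above, this comparison holds the engineered line, the vehicle and the fusion together. IGFBP7, IGFBP3 and IGFBP6 rose, IGFBP2 and IGFBP5 fell, and IGFBP4 did not pass the test. The call was an adjusted p under 0.05 by edgeR's quasi-likelihood test with Benjamini-Hochberg adjustment over 18391 genes. Among all genes tested, 13% were called higher and 14.1% lower in this comparison. The members thus gave 3 higher and 2 lower of 9 tested.

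IGFBP7 was the member with the largest difference. Its gene lies on the minus strand of chromosome 4 (57030773 to 57110385, hg38). It had 2.06, 1.002 and 1.91 CPM in the 3 eGFP libraries, from 33, 17 and 29 counts. It had 29.7, 23.3 and 26.2 CPM in the condensed libraries. Every condensed library stood above every eGFP library, and none overlapped. The level rose 15.99-fold (log2 4.0, standard error 0.224), and the adjusted p was 5.69e-13 by edgeR's quasi-likelihood test. The exons of IGFBP7 share 260 of their 1930 bases (13.5%) with POLR2B on the opposite strand, and whether strand was used in counting is not given in the sources used here. POLR2B itself had 381 ± 24.0 CPM in eGFP cells and 411 ± 16.9 CPM in condensed cells (SD, n = 3), a log2 difference of 0.11 that did not pass the test.

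IGFBP3, the main carrier of IGFs in serum, lies on the minus strand of chromosome 7 (45912245 to 45921874), 18584 bp from its neighbour IGFBP1. IGFBP1 had 2 reads over all libraries. IGFBP3 had 1, 19 and 10 counts in the eGFP libraries, or 0.0625, 1.12 and 0.660 CPM. The condensed libraries had 144, 90 and 87 counts, or 6.94, 4.97 and 5.59 CPM, and every one was above the eGFP libraries. The level rose 9.33-fold, or by 3.22 on the log2 scale with a standard error of 0.437 (adjusted p = 3.5e-06 by edgeR's quasi-likelihood test). The size of this difference moved with the eGFP libraries, to 4.03 on the log2 scale without eGFP replicate 2 and 2.69 without eGFP replicate 1.

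IGFBP6, a binding protein that prefers IGF2 over IGF1, lies on chromosome 12 (53097436 to 53102345, plus strand). It had 1.44, 1.89 and 1.58 CPM in the eGFP libraries against 6.17, 6.19 and 5.47 CPM in the condensed libraries. These ranges did not overlap. IGFBP6 rose by 1.86 ± 0.219 on the log2 scale (standard error), with adjusted p = 1.29e-06 by edgeR's quasi-likelihood test.

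IGFBP2 and IGFBP5 are neighbours on chromosome 2 and both fell. IGFBP2 (216632828 to 216664436, plus strand) and IGFBP5 (216672105 to 216695549, minus strand) face each other with their 3′ ends, 7668 bp apart. IGFBP2 had 128, 114 and 124 CPM in the eGFP libraries and 93.8, 73.4 and 81.3 CPM in the condensed libraries. It fell by 0.56 on the log2 scale (standard error 0.0964), with adjusted p = 0.000168 by edgeR's quasi-likelihood test. IGFBP5 had 24.2, 31.8 and 30.5 CPM in the eGFP libraries and 16.4, 18.1 and 16.3 CPM in the condensed libraries. It fell by 0.77 on the log2 scale (standard error 0.151), with adjusted p = 0.000621 by the same test. For both genes the condensed libraries lay below all eGFP libraries. IGFBP4, on chromosome 17 (40443450 to 40457725, plus strand), had 9.46 ± 0.832 CPM in eGFP and 8.96 ± 1.86 CPM in condensed cells (SD, n = 3), with overlapping libraries and a log2 difference of -0.07 (95% interval -0.42 to 0.27).

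**Figure D1:**
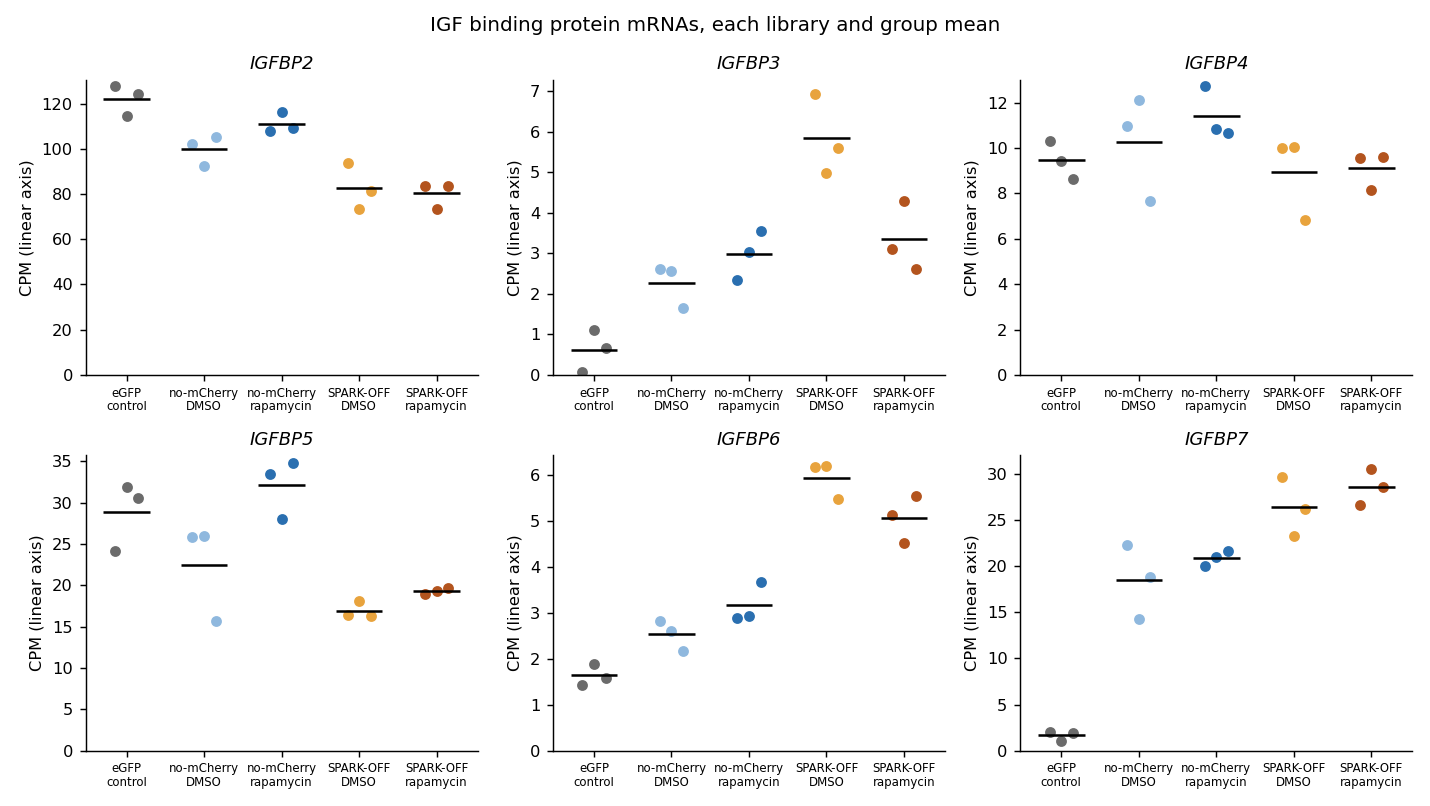
CPM of the 6 binding protein mRNAs (vertical axes, linear from 0) in the 5 groups (horizontal axes); points are single libraries and lines are means of 3 libraries. IGFBP7 is at or below 2.06 CPM in the eGFP libraries and at or above 14.3 CPM in all others, IGFBP3 has its highest mean in SPARK-OFF cells with DMSO (5.84 CPM), and IGFBP2 has its lowest means in SPARK-OFF cells.

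The promoters of 3 of these genes are shown because the genes moved in both directions in cells that carry a YAP fusion, and YAP binds DNA through TEAD factors, whose sites hold the core GGAATG. Promoter windows of 300 bases (250 before and 50 after the start) came from RefSeq (GRCh38.p14) and matched 8 of the 10 genes, while IGFBP7 and IGF2 have no entry. The core was searched on both strands in the whole window. The 250 bases before the start are printed on the strand of the gene, with GGAATG or its reverse complement CATTCC in capitals. The starts are those of RefSeq and can differ from the gene ends given above. The printed IGFBP3 bases lie inside that gene's span (45912245 to 45921874). Most printed IGFBP6 bases, with the marked core, lie past that gene's first base (53097436).
IGFBP6, chr12:53097417-53097666, plus strand: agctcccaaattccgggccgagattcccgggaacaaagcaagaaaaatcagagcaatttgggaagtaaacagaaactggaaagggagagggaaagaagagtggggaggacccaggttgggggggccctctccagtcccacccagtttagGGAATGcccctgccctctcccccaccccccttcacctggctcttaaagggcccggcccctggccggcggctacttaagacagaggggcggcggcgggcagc
IGFBP5, chr2:216695550-216695799, minus strand: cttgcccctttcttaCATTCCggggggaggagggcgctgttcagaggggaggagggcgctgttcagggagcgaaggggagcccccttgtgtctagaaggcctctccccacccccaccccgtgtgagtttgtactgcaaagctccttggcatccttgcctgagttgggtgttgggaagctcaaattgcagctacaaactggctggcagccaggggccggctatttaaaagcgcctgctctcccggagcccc
IGFBP3, chr7:45921273-45921522, minus strand: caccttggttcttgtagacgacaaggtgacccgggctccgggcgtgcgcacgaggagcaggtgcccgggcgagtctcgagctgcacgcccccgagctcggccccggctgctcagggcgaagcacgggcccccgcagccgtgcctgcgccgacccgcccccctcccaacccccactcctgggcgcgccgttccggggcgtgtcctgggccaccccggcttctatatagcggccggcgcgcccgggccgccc
The core was found once in the window of IGFBP6, which rose, and once in that of IGFBP5, which fell. It was not found in the window of IGFBP3, which rose more than IGFBP6, nor in those of IGFBP2, IGFBP4, IGF1R, INSR and IGF2R. The 8 matched genes have 10 windows, of which 2 held the core. Of all 35116 RefSeq windows, 4928 (14%) held it. The AP-1 site TGACTCA was in 4.95% of all windows and in none of the members' windows. The IGFBP3 window is rich in G and C (76.0% of the printed bases, with 32 CpG), against 61.2% in both other windows with 9 CpG in IGFBP6 and 8 in IGFBP5. A match describes the letters in the window and does not show that a factor binds there.

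Cells with diffuse YAP-MAML2 were compared with the same eGFP libraries, to see whether the binding proteins also differ when the fusion is not condensed. The same 5 members passed with the same directions, 3 higher and 2 lower of 9, where 11.4% of all genes were called higher and 12.5% lower. The diffuse libraries had 26.7, 30.6 and 28.6 CPM of IGFBP7, a log2 fold change of 4.11 (adjusted p = 3.54e-13 by edgeR's quasi-likelihood test). IGFBP3 had 3.11, 4.30 and 2.62 CPM, or 2.41 above eGFP on the log2 scale (adjusted p = 0.000197, standard error 0.444), with 3.21 without eGFP replicate 2 and 1.88 without eGFP replicate 1. IGFBP6 had 5.13, 4.51 and 5.55 CPM, a log2 fold change of 1.63 (adjusted p = 9.12e-06). All diffuse libraries stood above all eGFP libraries for these 3 genes. IGFBP2 fell by 0.61 on the log2 scale (adjusted p = 8.28e-05) and IGFBP5 fell by 0.58 (adjusted p = 0.00683), both by the same test and without overlap of libraries. Since both comparisons use the same control libraries, the shared directions are not independent evidence.

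**Figure D2:**
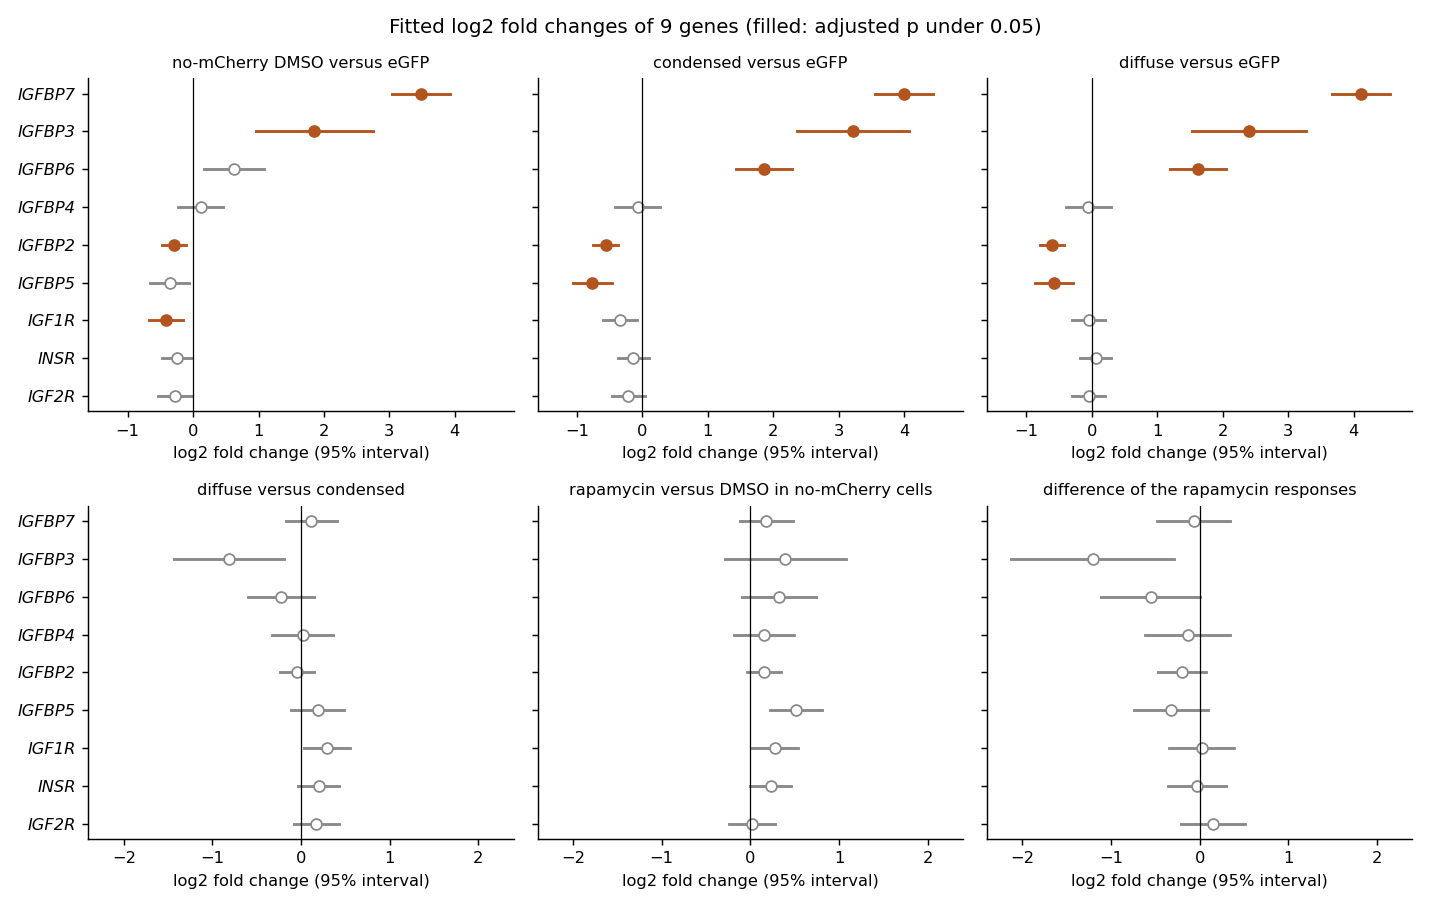
Fitted log2 fold changes (horizontal axes) with 95% intervals for the 9 genes tested (vertical axes) in 6 comparisons, first group over second; filled points passed an adjusted p under 0.05. The upper panels, which share the eGFP libraries, run from 4.11 for IGFBP7 to -0.77 for IGFBP5, and no point is filled in the lower panels, where IGFBP3 has the widest interval. The intervals use a normal approximation and can be narrower than the test itself gives.

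The direct comparison of diffuse with condensed cells asks which of the genes change when rapamycin dissolves the condensates, and it also holds the drug itself. None of the 9 tested members passed, in either direction, by edgeR's quasi-likelihood test, where 0.0381% of all genes were called higher and 0.0924% lower. At an unadjusted p under 0.05, 1 member was higher and 1 lower, and DESeq2 called 0. The study's thresholds for a differentially expressed gene were FDR under 0.1, P under 0.01 and a log2 difference of 0.58 or more in size. By these, 0 members passed as well, where 0.0544% of all genes (10) passed as higher and 0.0979% (18) as lower. The paper, with its own edgeR fit at these thresholds, lists IGFBP3 among the genes raised further by phase separation. The reading of IGFBP3 here thus differs from the paper's. IGFBP3 passed these thresholds in 0 of 20 alternative fits. The paper also counts more genes at these thresholds, in both directions, than passed here. The cause of these differences was not tested. The member that was lower at the unadjusted level was IGFBP3. Its means were 3.34 ± 0.863 CPM in diffuse and 5.84 ± 1.01 CPM in condensed cells (SD, n = 3). All 3 diffuse libraries, at 2.62 to 4.30 CPM, lay below all 3 condensed libraries, at 4.97 to 6.94 CPM. How many of all genes had libraries apart in this way was not counted, here or in the other comparisons. The log2 difference was -0.82 (standard error 0.317, 95% interval -1.44 to -0.19), with an unadjusted p of 0.0172 and an adjusted p of 0.755 by edgeR's quasi-likelihood test. The member that was higher was IGF1R, described below with the receptors. IGFBP7 differed by 0.12 on the log2 scale between diffuse and condensed cells (95% interval -0.17 to 0.40), IGFBP6 by -0.23 (-0.60 to 0.14) and IGFBP2 by -0.05 (-0.24 to 0.14), all with overlapping libraries. IGFBP5 was 16.9 ± 0.971 CPM in condensed and 19.3 ± 0.390 CPM in diffuse cells (SD, n = 3), with libraries that did not overlap and a log2 difference of 0.19 (-0.11 to 0.49). MAML2 and YAP1 mRNA differed between the same groups by 0.38 and 0.41 on the log2 scale, higher in diffuse cells, which did not pass after adjustment (adjusted p = 0.209 and 0.215 by the same test).

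In no-mCherry cells, rapamycin was compared with DMSO to measure the drug without dissolution. By edgeR's quasi-likelihood test 0 of 9 members passed, where 0.451% of all genes were called higher and 1.17% lower. At an unadjusted p under 0.05, 1 member was higher and 0 lower, and DESeq2 called 1 higher. That member was IGFBP5, with 25.8, 26.0 and 15.7 CPM in the DMSO libraries and 33.5, 28.1 and 34.7 CPM in the rapamycin libraries. All rapamycin libraries were above all DMSO libraries, and DMSO replicate 3, which had the lowest TMM factor of all libraries (0.901), was the lowest. The log2 difference was 0.51 (standard error 0.148, unadjusted p = 0.00213, adjusted p = 0.0824 by edgeR's quasi-likelihood test). Over the alternatives it ran from 0.31 to 0.64, and the adjusted p from 0.00954 to 0.292. It was called with DESeq2 (adjusted p = 0.034), without the filter on low counts, and without DMSO replicate 2 (log2 difference of 0.64, adjusted p = 0.0379). IGFBP3 had 2.27 ± 0.547 CPM with DMSO and 2.98 ± 0.614 CPM with rapamycin (SD, n = 3), and the libraries overlapped.

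The rapamycin responses of SPARK-OFF and no-mCherry cells were then compared as an interaction, to ask whether they differ. The lines also differ in other ways, with MAML2 at 415 CPM in SPARK-OFF and 220 CPM in no-mCherry cells with DMSO. Dissolution therefore cannot be told apart from other differences between the lines. By edgeR's quasi-likelihood test 0 of 9 members passed, where 0.0272% of all genes were called higher and 0.0707% lower. At an unadjusted p under 0.05, 0 members were higher and 1 lower, and DESeq2 called 0. The lower member was IGFBP3, whose rapamycin response was -0.82 on the log2 scale in SPARK-OFF cells and 0.39 in no-mCherry cells, neither of which passed. The difference of these responses was -1.21 (standard error 0.471, unadjusted p = 0.0172, adjusted p = 0.57 by the same test). IGFBP6 followed with -0.55 (95% interval -1.11 to 0.00), and IGFBP7 was at -0.07 (-0.48 to 0.35).

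The no-mCherry cells with DMSO were compared with eGFP cells and with condensed cells, since they carry the fusion in another engineered line at a lower MAML2 level. Against eGFP cells 2 members were called higher and 2 lower of 9, where 7.08% of all genes were called higher and 6.41% lower. IGFBP7 rose to 22.3, 14.3 and 18.8 CPM, a log2 fold change of 3.48 (adjusted p = 3.16e-11 by edgeR's quasi-likelihood test), and IGFBP3 rose to 2.61, 2.56 and 1.64 CPM, a log2 fold change of 1.85 (adjusted p = 0.00828) that was 2.66 without eGFP replicate 2 and 1.33 without eGFP replicate 1. Both genes were higher in every no-mCherry library than in any eGFP library. IGFBP6 was at 2.53 ± 0.333 CPM against 1.64 ± 0.229 CPM (SD, n = 3), without overlap, and did not pass (adjusted p = 0.0767). The 2 lower calls were IGFBP2 (log2 fold change of -0.29, adjusted p = 0.0486) and IGF1R (-0.42, adjusted p = 0.0395). Both were near the threshold. The IGFBP2 call was lost in 15 of 20 alternatives (adjusted p of 0.0346 to 0.141 over all) and the IGF1R call in 7 of 20 (0.00723 to 0.204). The IGFBP3 call was lost in a fit of only the groups compared (adjusted p = 0.0754).

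Condensed cells were next set against no-mCherry cells with DMSO, whose fusion also forms condensates by the paper's account. This compares lines that differ in MAML2 level (415 against 220 CPM), and not condensed with diffuse fusion. By edgeR's quasi-likelihood test condensed cells had 3 members higher and 0 lower of 9, where 3.78% of all genes were called higher and 3.25% lower. At an unadjusted p under 0.05, 3 members were higher and 2 lower, and DESeq2 called 3 higher and 0 lower. IGFBP3 rose by 1.37 on the log2 scale (adjusted p = 0.0148), IGFBP6 by 1.23 (adjusted p = 0.000488) and IGFBP7 by 0.52 (adjusted p = 0.0367). The libraries of these genes did not overlap. Without SPARK-OFF DMSO replicate 1, IGFBP6 was the only one of these 3 that passed, with adjusted p = 0.0627 for IGFBP3 and 0.144 for IGFBP7. The IGFBP7 call was also lost without SPARK-OFF DMSO replicate 3 (adjusted p = 0.0967), no-mCherry DMSO replicate 2 (0.149) or no-mCherry rapamycin replicate 3 (0.0513), and in a fit of only the groups compared (0.105). The lower members at the unadjusted level were IGFBP2 (log2 difference of -0.27, adjusted p = 0.0915) and IGFBP5 (-0.41, adjusted p = 0.109). IGFBP5 was at -0.61 with adjusted p = 0.00201 without no-mCherry DMSO replicate 3, and IGFBP2 at -0.37 with adjusted p = 0.0384 without SPARK-OFF DMSO replicate 1.

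Over the 5 groups, the order of mean levels of IGFBP7 was eGFP, no-mCherry with DMSO, no-mCherry with rapamycin, condensed and diffuse. Libraries of the no-mCherry pair overlapped, as did those of the SPARK-OFF pair, and the other neighbours in this order were apart. For IGFBP6 the order was eGFP, no-mCherry with DMSO, no-mCherry with rapamycin, diffuse and condensed, and diffuse and condensed were the only neighbours that overlapped. IGFBP3 had the order eGFP, no-mCherry with DMSO, no-mCherry with rapamycin, diffuse and condensed, with overlap between the no-mCherry groups and between the no-mCherry group with rapamycin and the diffuse group. IGFBP2 ran the other way, with diffuse, condensed, no-mCherry with DMSO, no-mCherry with rapamycin and eGFP from lowest to highest, and its no-mCherry groups were the only neighbours that were apart.

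Levels of different genes were compared per kilobase of exon. In eGFP cells IGFBP2 was the most abundant binding protein mRNA at 25.8 CPM per kb, ahead of IGFBP5 at 4.46 and IGFBP4 at 4.29 CPM per kb. IGFBP2 made up 70.1 ± 1.97% of the summed CPM per kb of the 6 binding proteins in eGFP cells, 51.3 ± 3.95% in no-mCherry cells with DMSO and 40.1 ± 1.70% in condensed cells (SD, n = 3). The share of IGFBP7 was 2.33 ± 0.753% in eGFP cells, 23.1 ± 3.62% in no-mCherry cells with DMSO, 31.4 ± 1.47% in condensed cells and 34.2 ± 2.84% in diffuse cells (SD, n = 3). IGFBP7 thus ranked below all but IGFBP3 in eGFP cells and above all but IGFBP2 in each group with the fusion. IGFBP6 had a share of 3.32 ± 0.568% in eGFP and 10.2 ± 0.997% in condensed cells, and IGFBP3 of 0.372 ± 0.328% and 2.92 ± 0.230% (SD, n = 3). With coding length in place of exon length, IGFBP7 had a share of 1.1% in eGFP and 19.1% in condensed cells, and IGFBP2 of 70.4% and 51.9%. By coding length IGFBP7 was also below IGFBP5 in no-mCherry cells (12.7% against 16% with DMSO). The summed CPM of the 6 genes was 164 ± 4.20 in eGFP and 147 ± 14.3 in condensed cells (SD, n = 3), with overlapping libraries.

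**Figure D3:**
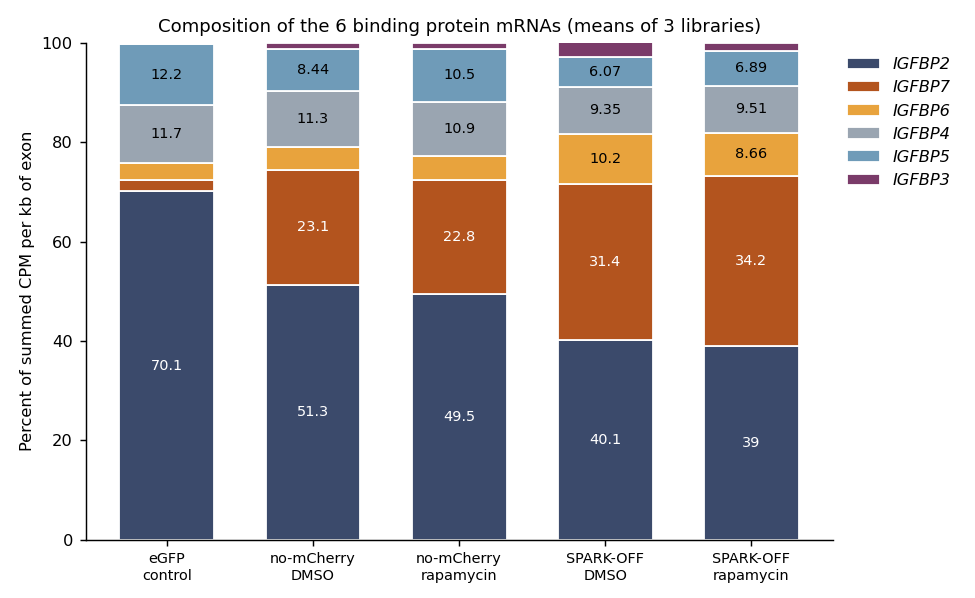
Share of each binding protein mRNA in the summed CPM per kb of exon of the 6 genes (vertical axis, percent) in the 5 groups (horizontal axis); each segment is the mean of 3 libraries. IGFBP2 falls from 70.1% in eGFP cells to 39.0% in diffuse cells, and IGFBP7 goes from 2.33% to 34.2%.

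IGF2, the one ligand in the set, was near the limit of detection. Its gene lies on the minus strand of chromosome 11 (2129112 to 2158391). It had 102 counts over all 15 libraries and did not pass the filter on low counts, so it was not tested. The counts were 2, 3 and 5 in eGFP cells, 8, 6 and 4 in no-mCherry cells with DMSO, 19, 5 and 4 in no-mCherry cells with rapamycin, 2, 5 and 6 in condensed cells, and 6, 16 and 11 in diffuse cells. Neighbouring groups in the order of their means overlapped. The eGFP libraries, at 0.125 to 0.330 CPM, lay below the diffuse libraries, at 0.346 to 0.870 CPM, with 10 counts in all against 33. The nearest libraries of this pair had 5 and 6 counts, and the gap was not tested. The exons of IGF2 share 43.2% of their 7146 bases with gene models on the same strand that have no count in any library, INS-IGF2 among them, and how reads in shared bases were counted is not given in the sources used here. IGF1 had 1 count and INS 0 counts over all libraries.

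Of the 3 receptors IGF1R alone passed, and in 1 comparison, no-mCherry DMSO against eGFP cells as given above. IGF1R (chromosome 15, 98648539 to 98964530, plus strand) had 63.5, 74.2 and 85.6 CPM in eGFP cells, 49.7, 62.9 and 63.3 CPM in condensed cells, and 71.7, 72.6 and 71.5 CPM in diffuse cells. Its condensed libraries lay below the eGFP and the diffuse libraries, while diffuse and eGFP libraries overlapped. The gap to the eGFP libraries was small, with 63.3 CPM in the highest condensed and 63.5 CPM in the lowest eGFP library. Condensed cells differed from eGFP cells by -0.34 on the log2 scale (standard error 0.133, adjusted p = 0.0568 by edgeR's quasi-likelihood test), and this was called in 6 of 20 alternatives, with the lowest adjusted p of 0.0167 without no-mCherry DMSO replicate 3. Diffuse cells differed from condensed cells by 0.30 (unadjusted p = 0.035, adjusted p = 0.853). Rapamycin in no-mCherry cells gave a difference of 0.27 (95% interval 0.01 to 0.53). The unadjusted p of this difference was 0.0513 and the adjusted p was 0.339, by the same test. The interaction was 0.02 (95% interval -0.34 to 0.39). INSR (chromosome 19, 7112255 to 7294414, minus strand) had group means of 27.6 to 34.2 CPM, and IGF2R (chromosome 6, 159969082 to 160113507, plus strand) of 129 to 156 CPM. No neighbouring groups were apart for any of the 3 receptors. Neither INSR nor IGF2R passed in any of the 7 comparisons. Per kilobase of exon, IGF2R was highest in eGFP cells at 6.90, followed by IGF1R at 5.34 and INSR at 3.03 CPM per kb, and IGF2R held 42.5 to 46.6% of their sum in the 5 groups.

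**Figure D4:**
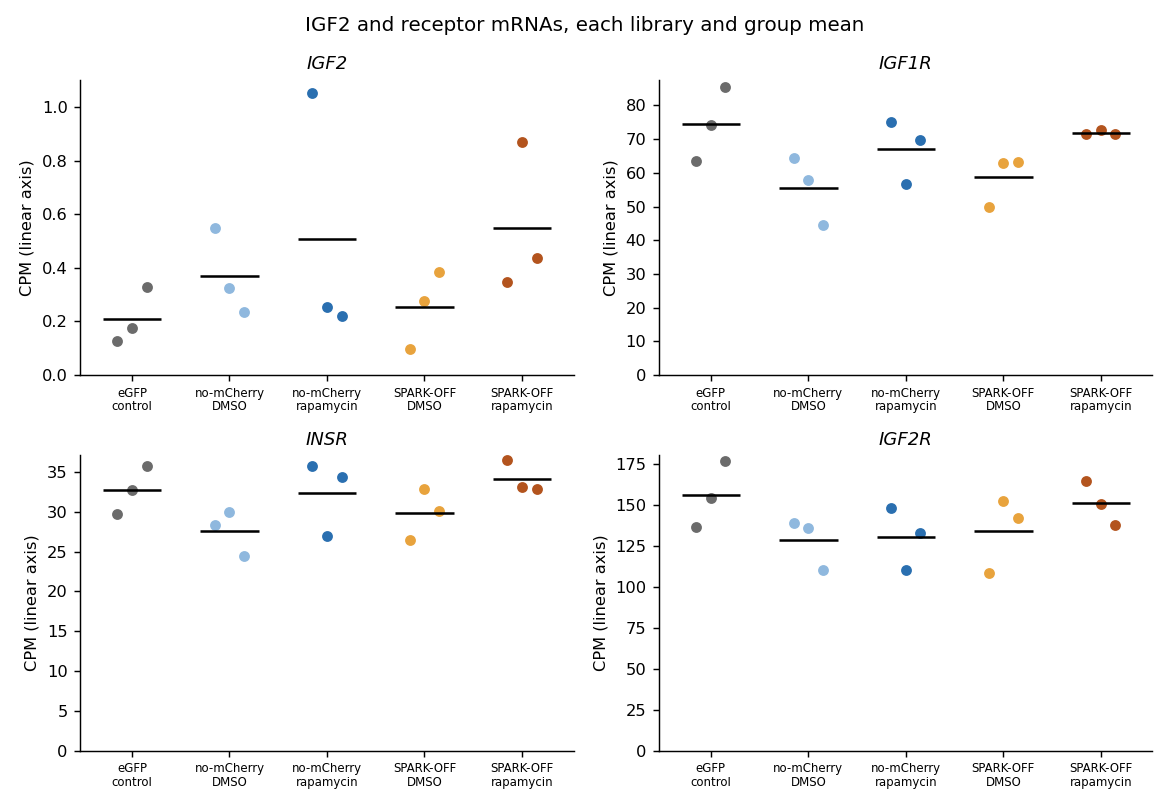
CPM of IGF2 and the 3 receptor mRNAs (vertical axes, linear from 0) in the 5 groups (horizontal axes); points are single libraries and lines are means of 3 libraries. IGF2 is at or below 1.06 CPM in every library, and the receptor libraries overlap between neighbouring groups.

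Other genes of the pathway were counted from lists. Of 28 adaptors and signalling genes below the receptors, 27 were tested, and 1 was higher and 7 lower in condensed than in eGFP cells, where 13% of all genes were called higher and 14.1% lower. The higher count was 3 in a fit of only the groups compared, 4 without no-mCherry DMSO replicate 3 and 3 without SPARK-OFF DMSO replicate 2, and it was 1 or 2 in the other alternatives. IRS4, an adaptor abundant in HEK293 cells, went from 2002 ± 79.8 CPM in eGFP to 599 ± 89.1 CPM in condensed cells (SD, n = 3), a log2 fold change of -1.74 (adjusted p = 1.17e-11 by edgeR's quasi-likelihood test), and was at 1365 ± 61.5 CPM in no-mCherry cells with DMSO. SOCS3, an inducible inhibitor of cytokine and insulin receptor signalling, was the higher gene, with 3.56 ± 0.516 CPM in eGFP, 7.51 ± 0.705 CPM in no-mCherry cells with DMSO and 27.6 ± 3.88 CPM in condensed cells (SD, n = 3), a log2 fold change of 2.96. The adaptors SH2B2 (-1.08) and GRB10 (-0.71) were among the lower genes. In diffuse cells 2 of 27 were higher and 6 lower than in eGFP cells, where 11.4% of all genes were called higher and 12.5% lower. The higher count was 4 in a fit of only the groups compared and without no-mCherry DMSO replicate 3, and 1 in 8 other fits that left out 1 library. By edgeR's quasi-likelihood test 0 of 27 passed in diffuse against condensed cells or with rapamycin in no-mCherry cells, and DESeq2 also called 0. At an unadjusted p under 0.05, 3 were higher and 0 lower in each of these comparisons.

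For the further lists, the shares of all genes in condensed against eGFP cells were again 13% called higher and 14.1% lower. Of 11 other ligands, binding proteins and receptors, 5 had enough reads, and 2 were higher and 1 lower in condensed than in eGFP cells. The higher genes were members of the IGF-like family, IGFL2 with 3 counts over the eGFP libraries and 827 over the condensed libraries, and IGFL4 with 1.07 ± 0.327 and 4.89 ± 0.962 CPM (SD, n = 3). The lower gene was IGFBPL1, which has an IGFBP-like domain (log2 fold change of -0.87, adjusted p = 0.0107 by edgeR's quasi-likelihood test). Of 7 tested genes among 10 IGFBP proteases and their inhibitors, 1 was lower, HTRA1, at 22.1 ± 3.34 CPM in eGFP and 12.5 ± 0.687 CPM in condensed cells (SD, n = 3), a log2 fold change of -0.82. With rapamycin in no-mCherry cells, 0.451% of all genes were called higher and 1.17% lower. STC2, an inhibitor of the protease PAPPA, was the only gene of this list that passed there. It fell by 0.72 on the log2 scale (adjusted p = 0.0145 by edgeR's quasi-likelihood test), from 44.8 to 27.2 CPM. That call was lost without DMSO replicate 1 (adjusted p = 0.0516) or 2 (0.0586), without rapamycin replicate 2 (0.104) or 3 (0.0634), and in a fit of only the groups compared (0.183), while DESeq2 and the fit without eGFP replicate 1 each called 1 gene of the list higher. Of 7 IGF2 mRNA binding proteins and imprinted neighbours, 4 were tested. Among them H19, the noncoding RNA beside IGF2, was higher in condensed than in eGFP cells at 1.84 against 0.591 CPM (log2 fold change of 1.61, adjusted p = 0.0146, and 1.22 with adjusted p = 0.0784 without eGFP replicate 3), and IGF2BP3 was lower by a log2 fold change of -0.63. Of 4 genes of mannose 6-phosphate sorting, 0 passed in condensed against eGFP cells by the same test or by DESeq2, and 1 was higher and 1 lower at an unadjusted p under 0.05. In a fit of only the groups compared, and without no-mCherry DMSO replicate 3, 1 was called higher and 1 lower, and without SPARK-OFF DMSO replicate 2 the calls were 0 higher and 1 lower. Of 6 CCN proteins, which begin with an IGFBP-like domain, 3 were tested, and all 3 were higher in condensed than in eGFP cells. In diffuse against condensed cells 2 of the 3 were lower, where 0.0381% of all genes were called higher and 0.0924% lower.

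**Figure D5:**
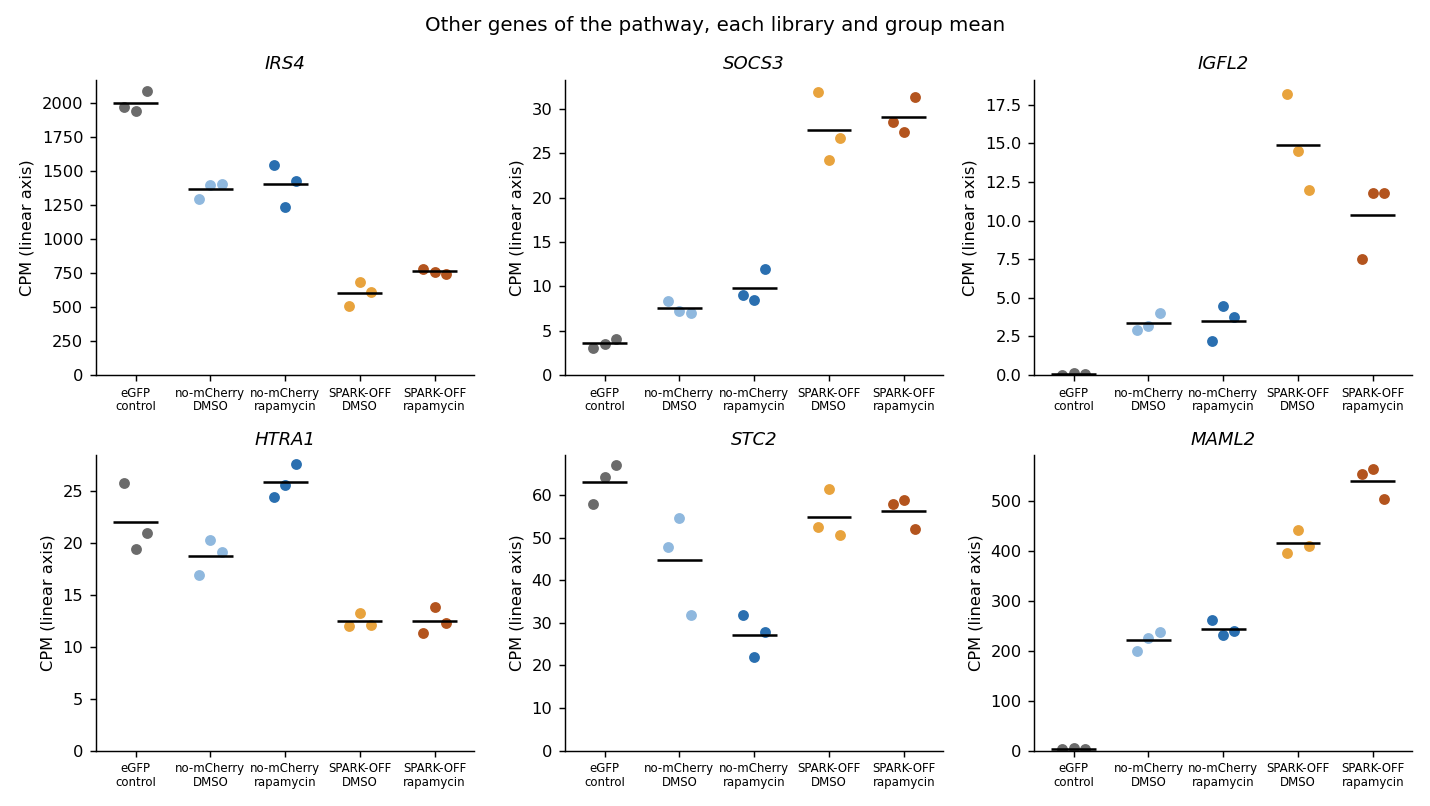
CPM of 5 other genes of the pathway and of MAML2 (vertical axes, linear from 0) in the 5 groups (horizontal axes); points are single libraries and lines are means of 3 libraries. IRS4 is lowest in SPARK-OFF cells, SOCS3 and IGFL2 are highest there, and STC2 is lowest in no-mCherry cells with rapamycin (27.2 CPM).

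The genes whose levels were most like those of each member were found by Pearson's r of log2(CPM + 0.5) over the 15 libraries, as a description, since libraries of a group share their line and treatment. For IGFBP7 they included CPA4 (r = 0.985) and MAML2 (0.983). For IGFBP3 they were the collagen gene COL3A1 (0.949), PSG4 (0.944) and the histone gene H3C6 (0.943). For IGFBP6 they were SOCS3 (0.977), KMT5A (0.973) and BSG (0.970). For the members that fell, the first were DEPTOR, an inhibitor of mTOR, with IGFBP2 (0.970) and TFAP2A with IGFBP5 (0.949). COL3A1 had 5.43 CPM in eGFP, 38.8 CPM in condensed and 31.8 CPM in diffuse cells. DEPTOR had 6.66 CPM in eGFP, 2.73 CPM in condensed and 2.30 CPM in diffuse cells. For the receptors and IGFBP4 the highest r was 0.840 to 0.962.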

How the data were processed

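RNA-seq of 15 HEK293 libraries was used, 3 in each of 5 groups, with groups and replicate numbers from the sample titles. For no-mCherry cells with DMSO the description names rapamycin while title and treatment name DMSO, and the latter were followed. The authors deposited raw read counts per gene as whole numbers, with no scaling. The paper states fastp trimming, STAR alignment to hg38 and edgeR on raw counts, and FastQC, fastp, HTSeq and edgeR are listed in the submitters' processing notes. For annotation, strand setting and versions, the entry is not given in the sources used here. Of 61533 identifiers, 61369 matched GENCODE v44 without the version and 46 were Y copies of pseudoautosomal genes.

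The analysis ran in edgeR 4.0.16 under R 4.3.3. Genes were kept by filterByExpr over the 5 groups (18391 genes), libraries were scaled by TMM (factors 0.901 to 1.05), and 1 quasi-likelihood fit over all libraries gave 7 comparisons, with Benjamini-Hochberg adjustment over all genes tested and calls at an adjusted p under 0.05. The common biological coefficient of variation was 0.111. Total counts were 14720387 to 24797509, so that 1 CPM was about 14.7 counts in the smallest library, and the fewest reads limit IGF2 and IGFBP3. Values after ± are SDs of 3 libraries. Overlap of libraries between groups is given as a description, and the share of all genes without overlap was not counted. The steps were tested on simulated counts. DESeq2 1.42.0, RLE factors, no filter, only the groups compared, a replicate block, each library left out and, for levels between genes, coding length were the alternatives.

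All 10 members were reported. Of other lists, up to 4 genes per list and comparison were eligible to be named, the called genes with the largest absolute log2 fold change and at least 1 CPM in the higher group, together with genes at 0, MAML2, YAP1 and the 3 protein-coding genes most alike to each member. Of the last, 1 gene is not reported here. POLR2B, which shares bases with IGFBP7, and IGF1, IGFBP1, CDH5, PTPRC and PECAM1 were named after their values were seen. The members and lists were chosen with earlier results of these data known. Motif windows came from RefSeq promoters of GRCh38.p14.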

Additional observations from a re-analysis of the deposited data

Results flagged for a closer look

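The rapamycin response differed between SPARK-OFF and no-mCherry cells for 2 genes of the CCN list, by the test of the difference itself. The paper, which calls CCN1 CYR61 and CCN2 CTGF, reports both as raised further by phase separation. By RT-qPCR it also found both lowered by dissolution and not changed by rapamycin alone. CCN1 had a log2 difference of -0.65 between the responses (adjusted p = 0.017 by edgeR's quasi-likelihood test), with 1392 CPM in condensed, 888 CPM in diffuse, 474 CPM in no-mCherry DMSO and 473 CPM in no-mCherry rapamycin cells. CCN2 had a log2 difference of -0.64 (adjusted p = 0.0348 by the same test), with 1469, 903, 564 and 541 CPM in the same groups. The CCN1 call was lost without 1 library in 4 of 15 cases (adjusted p of 0.0523 to 0.0879). The CCN2 call was lost without 1 library in 10 of 15 cases (adjusted p of 0.0557 to 0.118) and with the replicate block (0.0631). No member of the IGF set differed in this way at an adjusted p under 0.05.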

How the results depend on the processing

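Of 63 log2 fold changes of the 9 tested members, each under 20 alternatives, 1218 of 1260 values kept their direction where called and their side of the threshold, 29 lost and 13 gained a call, and none reversed. Condensed and diffuse against eGFP cells gave 3 members higher in every alternative, and 2 lower, or 3 lower for condensed cells in 6 alternatives where IGF1R was also called. Members called higher with rapamycin in no-mCherry cells went from 0 to 1 with DESeq2 and to 1 with no filter, and to 0 to 1 with a library left out. Members called higher in no-mCherry DMSO against eGFP cells went from 2 to 1 in a fit of only the groups compared. Members called lower there went from 2 to 1 with RLE factors, 1 with no filter and 0 in a fit of only the groups compared, and to 0 to 2 with a library left out. In condensed against no-mCherry DMSO cells, members called higher ran from 1 to 3 with a library left out, and members called lower went from 0 to 1 with no filter and to 0 to 1 with a library left out. The cause was not tested.

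The labels do not say whether replicate numbers pair the libraries, and deviations from the group means showed no such pairing. The 30 correlations of these deviations between same-numbered libraries were -0.14 to 0.0992, with 0 over 0.1. Low values do not show that same-numbered libraries came from separate cultures or batches. The replicate block moved members called lower in no-mCherry DMSO against eGFP cells from 2 to 1 and changed no other count of member calls.

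Counts of all genes called varied more. Diffuse against condensed cells gave 7 higher and 17 lower, against 27 and 38 with DESeq2, 35 and 26 with no filter and 34 and 29 in a fit of only the groups compared. Rapamycin in no-mCherry cells gave 83 and 215, against 219 and 541, 132 and 298, and 1 and 1. The interaction gave 5 and 13, against 45 and 33, 23 and 28, and 5 and 15, and 1 and 7 with the replicate block. No-mCherry DMSO against eGFP cells gave 1303 and 1178, against 297 and 236 in a fit of only the groups compared, and condensed against no-mCherry DMSO cells gave 695 and 598, against 299 and 156. With 1 library left out, the higher and lower calls ranged from 3 to 30 and 8 to 26, 20 to 107 and 63 to 274, 1 to 46 and 1 to 34, 512 to 1829 and 456 to 1478, and 403 to 767 and 255 to 836, in the same order of comparisons. The same alternatives for the other gene lists were added after the data had been seen, and counts that moved are given in the report beside the lists of adaptors and of mannose 6-phosphate sorting and beside the genes STC2 and H19. With few counts, IGF2 and eGFP levels of IGFBP3 are limited by depth.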
